A study of Mus musculus with 11 samples.

Results

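Gfpt2, Fmo2, Ppl, Ier3, Klhdc8a, Prnd, Chp2, Pla2g2d and Tnfaip2 are 9 mouse genes that are seldom discussed in the heart. They were chosen by their measured levels in hearts depleted of macrophages, which stood apart from those in control hearts. Each symbol matched 1 gene of the deposited table of normalised counts, so 9 of 35584 genes are described, and all 9 were among the 13884 genes with enough signal to be tested. The difference between depleted and control hearts chose these genes and is therefore given as a description, with no test.

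The study sequenced polyA RNA of entire hearts in 11 libraries, from male mice aged 8 to 12 weeks and kept free of specific pathogens. The Macrophage-depleted group (n = 3) had the genotype CD169-DTR, in which a diphtheria toxin receptor is placed under the control of the CD169 gene, Siglec1. These mice were injected with diphtheria toxin 3 times a week over 3 weeks, each dose being 0.01 µg for every g of weight, and their hearts had been depleted of macrophages for 21 days per the labels. WT mice (n = 3) received the same toxin and carried no receptor, so allele and depletion cannot be told apart. Mertk-KO mice (n = 2) lacked Mertk, a receptor with which macrophages engulf dying cells, and LXR-DKO mice (n = 3) lacked both liver X receptors, which are nuclear receptors for oxidised cholesterol. The labels do not tell whether those 2 groups were given toxin. They also do not tie libraries to single mice, so p-values measure only the spread between libraries, which may be technical.

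Cardiac resident macrophages sit between cardiomyocytes, clear debris and engulfed mitochondria, and signal to the endothelium, fibroblasts and muscle around them. A whole-heart library mixes the RNA of all these cells, with cardiomyocytes giving most of it. Fewer cells of a type and less RNA per cell cannot be told apart in such data.

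The 9 genes fall into several families. Gfpt2 is a rate-limiting enzyme of the hexosamine pathway, which makes the sugar donor for protein glycosylation. Fmo2 is a flavin-containing monooxygenase of the endoplasmic reticulum, best known from lung, that oxidises drugs and other soft nucleophiles. Ppl encodes periplakin, a cytolinker that ties intermediate filaments to desmosomes in epithelia, and Ier3 is an early response gene induced by stress and by NF-kB. Pla2g2d is a secreted phospholipase A2 known from dendritic cells and macrophages of lymphoid tissue. Tnfaip2, also called M-Sec, is induced by tumour necrosis factor in endothelial and myeloid cells and takes part in forming membrane nanotubes. Chp2 is a calcium-binding cofactor of sodium-proton exchangers. Prnd encodes doppel, a membrane-anchored relative of the prion protein, known from testis and from developing blood vessels. Klhdc8a carries kelch repeats and its function is little known.

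Libraries held 10938600 to 20722295 estimated reads, of which 31.4% to 36.5% were mitochondrial. Siglec1 checked the depletion. It stood at 64.3, 55.3 and 53.4 normalised counts in WT and at 33.8, 2.12 and 0.719 in Macrophage-depleted 1, 2 and 3, so Macrophage-depleted 1 stood apart from the other 2 depleted libraries. Over the whole list of resident macrophage markers it was Macrophage-depleted 3 that stood apart, with a sum of 252 against 1219 and 980. Log2 differences below are therefore also given without Macrophage-depleted 1 and without Macrophage-depleted 3. The liver X receptor genes Nr1h3 and Nr1h2 were at 27.7 ± 1.59 and 92.2 ± 7.19 normalised counts in LXR-DKO (SD, n = 3) against 162 ± 9.87 and 531 ± 10.5 in WT. In TPM they were closer, at 6.54 ± 0.737 and 17.6 ± 1.70 against 9.57 ± 0.934 and 29.8 ± 3.33, or 68.4% and 59.0% of WT. Mertk was at 82.6 ± 9.73 in Mertk-KO (SD, n = 2), and its means were 136 ± 9.60 in WT, 98.9 ± 4.70 in LXR-DKO and 98.0 ± 25.2 in Macrophage-depleted (SD, n = 3). Reads from outside a deleted part still count, so these genes are a weak check of their labels. A normalised count here is an estimated read number scaled to a library of average size.

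Per unit of transcript length, on the scale of the second deposited table (TPM, a measure of transcripts per unit length and depth, rescaled between libraries), the genes spanned a wide range in WT hearts. Tnfaip2 was at 23.7 ± 3.44 TPM and Ier3 at 19.0 ± 0.375 TPM (SD, n = 3). Fmo2 followed at 8.98 ± 0.842 TPM, Klhdc8a at 6.08 ± 0.634, Gfpt2 at 4.30 ± 0.415 and Prnd at 3.28 ± 0.764. The lowest were Chp2 at 1.73 ± 0.341 TPM, Ppl at 1.31 ± 0.0479 and Pla2g2d at 1.14 ± 0.114. In this order only Gfpt2 and Prnd overlapped in their WT libraries, at 3.85 to 4.67 and 2.54 to 4.06 TPM, and all other neighbours were apart.

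Gfpt2, Fmo2, Ppl and Ier3 were the 4 genes with higher levels after depletion. Gfpt2 (chr11:49794178-49838613, plus strand, GRCm38) was at 138, 156 and 167 normalised counts in WT. In Macrophage-depleted 1, 2 and 3 it was at 262, 386 and 297, a mean of 315 ± 64.0 against 153 ± 14.3 (SD, n = 3), or 2.05 times the WT mean. Every depleted library lay above every other library, but the nearest, Mertk-KO 1 at 247, was only 1.06-fold below the lowest of them. The log2 difference from WT was 1.02 (SE 0.16), 1.14 without Macrophage-depleted 1 and 1.05 without Macrophage-depleted 3.

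The 250 bases before the start of Gfpt2 (chr11:49793905-49794154, plus strand, GRCm38.p6, from RefSeq) are shown because no other window of the 9 genes held an AP-1 site. Capitals mark TGANTCA, the site of AP-1 factors, 223 bases before the start:
Gfpt2: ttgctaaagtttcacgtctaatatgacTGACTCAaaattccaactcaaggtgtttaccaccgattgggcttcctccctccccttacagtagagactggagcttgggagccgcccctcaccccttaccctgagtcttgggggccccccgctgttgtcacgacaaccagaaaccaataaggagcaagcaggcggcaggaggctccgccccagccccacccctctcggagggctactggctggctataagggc

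Fmo2 (chr1:162874317-162898726, minus strand) was at 355, 393 and 302 normalised counts in WT and at 618, 583 and 810 in the depleted libraries. The means were 350 ± 45.9 and 670 ± 122 (SD, n = 3), a ratio of 1.92. The other 8 libraries all lay between 295 and 393, the narrowest range of the 9 genes (1.33-fold), and the lowest depleted library was 1.48-fold above them. On the log2 scale the difference from WT was 0.93 (SE 0.14), or 0.98 without Macrophage-depleted 1 and 0.79 without Macrophage-depleted 3.

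Ppl (chr16:5086291-5132421, minus strand) was at 99.95, 105 and 103 normalised counts in WT, closely grouped. The depleted libraries held 208, 173 and 275, giving 219 ± 51.7 against 103 ± 2.75 (SD, n = 3) and a 2.13-fold ratio. Groups did not overlap, and LXR-DKO 3 at 135 came nearest, 1.28-fold below. The log2 difference was 1.06 (SE 0.18), or 1.08 without Macrophage-depleted 1 and 0.88 without Macrophage-depleted 3.

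Ier3 (chr17:35821684-35822923, plus strand), the shortest of these genes in the genome, was at 242, 247 and 227 normalised counts in WT. After depletion it was at 389, 366 and 439, with means of 398 ± 37.6 and 239 ± 10.3 (SD, n = 3) and a ratio of 1.67, the smallest of the 9 genes in distance from WT. Its log2 difference was 0.73 (SE 0.13), 0.75 without Macrophage-depleted 1 and 0.66 without Macrophage-depleted 3. Mertk-KO 1 at 319 was 1.15-fold below the lowest depleted library.

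The other 5 genes were lower after depletion, and Pla2g2d (chr4:138775735-138782046, plus strand) was the furthest from WT. It was at 22.3, 31.0 and 28.5 normalised counts in WT and at 7.04, 3.48 and 1.60 in Macrophage-depleted 1, 2 and 3. The depleted mean of 4.04 ± 2.76 was 14.8% of the WT mean of 27.3 ± 4.45 (SD, n = 3), and 9.32% without Macrophage-depleted 1. These are few reads: a total of 12 after depletion and 78 in WT. The ratio per read sequenced was 0.126, with an exact 95% interval of 0.0623 to 0.232 that covers counting error only. In every depleted library Pla2g2d lay below all 8 others, of which the lowest was LXR-DKO 1 at 17.6. On the log2 scale the difference was -2.62 (SE 0.41), or -3.04 without Macrophage-depleted 1 and -2.22 without Macrophage-depleted 3. It depends on the pseudocount at such levels, becoming -1.87 with 5 added in place of 1.

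Chp2 (chr7:122219496-122222824, plus strand) was at 35.1, 27.6 and 26.2 normalised counts in WT and at 8.45, 9.19 and 6.48 after depletion. Its depleted mean of 8.04 ± 1.40 was 27.1% of the WT mean of 29.6 ± 4.77 (SD, n = 3). The reads behind this were 28 and 85, a ratio of 0.269 per read sequenced with an exact 95% interval of 0.169 to 0.417. Chp2 had the widest gap of the 9 genes, with the lowest of the other 8 libraries, Mertk-KO 2 at 25.3, 2.76-fold above the highest depleted one. The log2 difference was -1.76 (SE 0.25), -1.80 without Macrophage-depleted 1, -1.63 without Macrophage-depleted 3 and -1.41 with 5 added in place of 1.

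Prnd (chr2:131950861-131956130, plus strand) was at 133, 129 and 129 normalised counts in WT, the smallest spread for its level of any of the 9 genes there. Macrophage-depleted 1, 2 and 3 held 45.0, 69.3 and 36.0, a mean of 50.1 ± 17.2 that was 38.5% of the WT mean of 130 ± 2.29 (SD, n = 3). LXR-DKO 3 at 84.9 came nearest, 1.23-fold above the highest depleted library. The log2 difference was -1.41 (SE 0.23), or -1.36 without Macrophage-depleted 1 and -1.21 without Macrophage-depleted 3. In TPM the depleted mean was 0.768 ± 0.490 against 3.28 ± 0.764 (SD, n = 3), or 23.4%.

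Assignment of reads to Prnd is uncertain, since the annotation places another gene on the same strand over it. That gene, Prn, was at 0 normalised counts in all 11 libraries and was listed at up to 1.57 TPM in the second table, in WT 1. The window before the first start of Prnd (chr2:131950611-131950860, plus strand, GRCm38.p6, from RefSeq) is shown because it holds CACGTG, the E-box bound by clock factors among others, 185 bases before the start and in capitals here:
Prnd: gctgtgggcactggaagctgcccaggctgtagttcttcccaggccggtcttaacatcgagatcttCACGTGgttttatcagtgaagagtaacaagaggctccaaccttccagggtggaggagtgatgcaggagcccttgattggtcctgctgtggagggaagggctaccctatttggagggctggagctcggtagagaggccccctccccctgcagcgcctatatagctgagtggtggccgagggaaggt

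Klhdc8a (chr1:132298626-132307357, plus strand) was at 347, 294 and 302 normalised counts in WT. The depleted libraries were nearly alike at 169, 179 and 168, a mean of 172 ± 6.15 that was 54.7% of the WT mean of 314 ± 28.5 (SD, n = 3). WT 2 was the nearest of the other 8 libraries, 1.64-fold above. The log2 difference was -0.86 (SE 0.11), or -0.85 without either Macrophage-depleted 1 or Macrophage-depleted 3.

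Tnfaip2 (chr12:111442469-111455018, plus strand), the highest of the 9 genes in TPM, was at 784, 715 and 838 normalised counts in WT. After depletion it was at 396, 510 and 413, and the mean of 439 ± 61.4 was 56.4% of the WT mean of 779 ± 61.9 (SD, n = 3). The nearest other library, WT 2, lay 1.40-fold above the highest depleted one. Its log2 difference was -0.83 (SE 0.10), or -0.76 without Macrophage-depleted 1 and -0.79 without Macrophage-depleted 3.

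**Figure D1:**
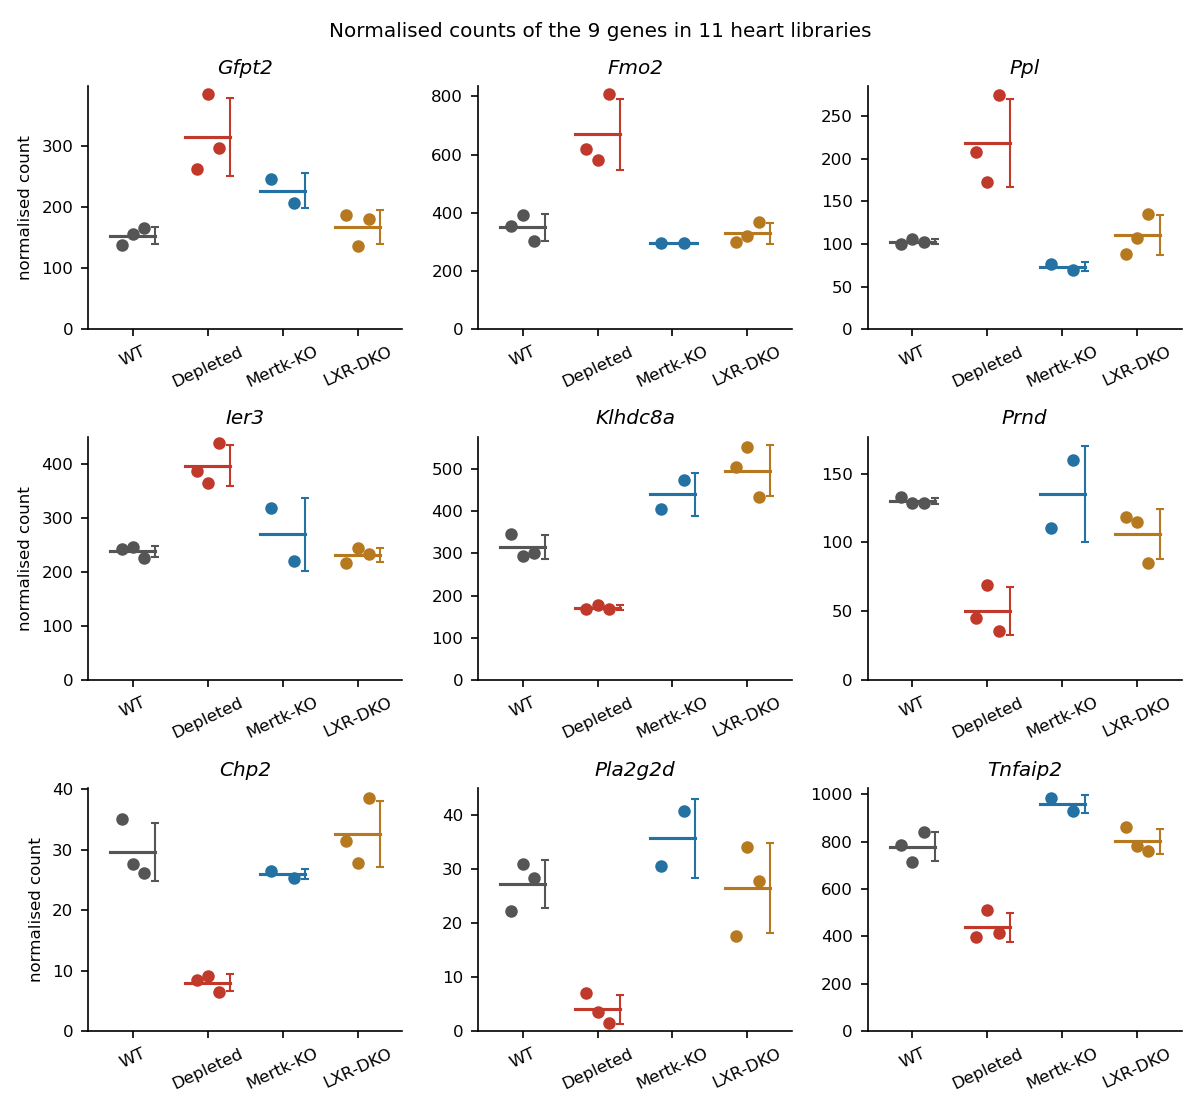
Normalised count (vertical axis, from 0) of each of the 9 genes in 11 heart libraries: points are libraries, horizontal lines are group means and bars are SD, with n = 3 in WT, Macrophage-depleted (marked Depleted) and LXR-DKO and n = 2 in Mertk-KO. The red points lie outside all 8 others for each gene, above them for Gfpt2, Fmo2, Ppl and Ier3 and below them for the other 5 genes.

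Set against WT, all 9 genes passed the threshold (limma, Benjamini-Hochberg adjusted p below 0.05), 4 higher and 5 lower, where 0.238% of all genes tested did (0.0792% higher and 0.158% lower). Since that comparison chose the genes, nothing is read from the count. The depleted libraries lay outside all 8 others for 9 of 9 genes in both deposited tables, where 6.62% of all genes tested did so in the first table (3.33% higher and 3.28% lower). With Macrophage-depleted 1 left out, 6 of the 9 passed, and Ppl, Ier3 and Prnd did not. Without Macrophage-depleted 2 there were also 6, with Gfpt2, Ier3 and Pla2g2d lost. Of all 13884 genes tested 41 and 16 passed in these fits. LXR-DKO libraries enter through the shared spread, and 7, 6 and 8 passed without LXR-DKO 1, 2 and 3, where 24, 23 and 30 of all genes tested did. Ier3 was lost in each case, Prnd without LXR-DKO 1 or 2 and Ppl without LXR-DKO 2. All 9 passed with Mertk-KO 1 or with Mertk-KO 2 left out. None passed in limma without WT 1, without WT 3 or without Macrophage-depleted 3, where 6, 3 and 9 of all genes tested did. All 9 were at an unadjusted p below 0.05 in each case, as were 711, 812 and 745 of all genes tested. Without WT 2 there were 3, namely Tnfaip2, Fmo2 and Klhdc8a, where 15 of all genes tested passed. With TPM values 0 of 8 passed in limma, where 6 of 12303 genes tested did. All 8 were at an unadjusted p below 0.05, and Pla2g2d was too low to be tested there. The 9 genes kept their direction under each of these settings in which they could be tested.

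In both mutant groups each of the 9 genes lay nearer to WT on the log2 scale than it did in depleted hearts. These comparisons share the WT libraries with the one that chose the genes, and so their values are descriptions too. Klhdc8a was on the same side of WT in both. It was at 404 and 474 normalised counts in Mertk-KO and at 503, 551 and 432 in LXR-DKO, above all WT libraries and on the opposite side of WT from the depleted hearts. Its log2 difference from WT was 0.48 (SE 0.13) in Mertk-KO and 0.65 (SE 0.11) in LXR-DKO. It was the 1 gene of 9 that passed the threshold in either comparison, where 9.27% and 0.418% of all genes tested did (3.38% and 0.216% higher). The call in Mertk-KO was lost without WT 1, WT 2, WT 3, Mertk-KO 2, LXR-DKO 1 or Macrophage-depleted 3. In LXR-DKO it was lost without WT 2, WT 3, LXR-DKO 1, LXR-DKO 2, Macrophage-depleted 2 or Macrophage-depleted 3.

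Gfpt2 was at 247 and 207 normalised counts in Mertk-KO, above the 3 WT libraries, and at 187, 136 and 181 in LXR-DKO, which overlapped WT. Its log2 difference was 0.56 (SE 0.18) in Mertk-KO, on the same side as in depleted hearts, and 0.12 (SE 0.16) in LXR-DKO. Ppl was below WT in Mertk-KO at 77.0 and 70.1, with a log2 difference of -0.48 (SE 0.20), and overlapped WT in LXR-DKO at 88.0, 107 and 135. So among the genes that were higher after depletion, the Mertk-KO libraries lay above WT for Gfpt2 and below WT for Ppl. Fmo2 was at 295 and 295 in Mertk-KO, just below the WT libraries, and at 300.2, 320 and 369 in LXR-DKO. Ier3 differed between the 2 Mertk-KO libraries, at 319 and 222, and was at 218, 245 and 234 in LXR-DKO, within or near the WT range.

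Tnfaip2 was at 984 and 930 normalised counts in Mertk-KO, above WT with a log2 difference of 0.30 (SE 0.12), but in TPM that difference was -0.10, so its direction depends on the table. In LXR-DKO it was at 861, 783 and 760, overlapping WT. Pla2g2d was at 30.6 and 40.9 in Mertk-KO and at 17.6, 34.1 and 27.8 in LXR-DKO, and both groups overlapped WT. Prnd was at 110 and 159 in Mertk-KO, on either side of WT, and at 119, 115 and 84.9 in LXR-DKO, all below WT with a log2 difference of -0.31 (SE 0.23), which was -0.01 in TPM. Chp2 was at 26.5 and 25.3 in Mertk-KO and at 31.5, 27.8 and 38.6 in LXR-DKO, again overlapping WT. Libraries did not overlap with WT for 5 of the 9 genes in Mertk-KO and for 2 in LXR-DKO, where 42.6% and 22.7% of all genes tested did not.

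**Figure D2:**
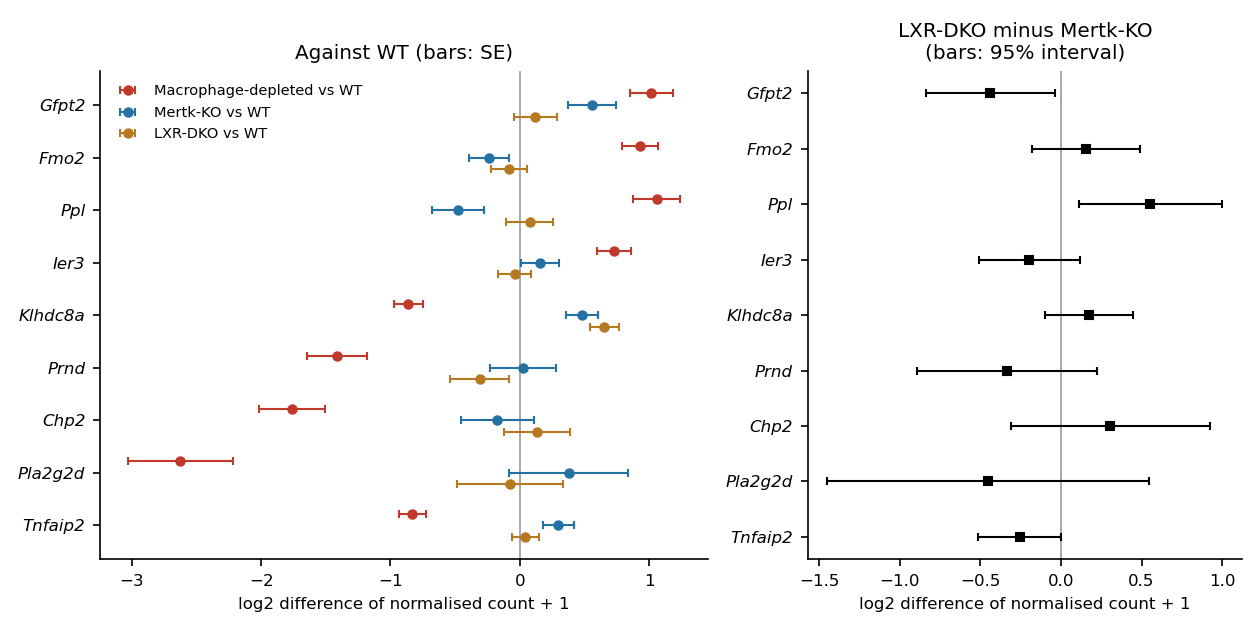
Log2 differences of normalised count + 1 for the 9 genes. On the left each group is set against WT with bars of 1 SE; the red points, which chose the genes, run from -2.62 (Pla2g2d) to 1.06 (Ppl), and Klhdc8a lies at -0.86 in red and above 0 in blue and ochre. On the right LXR-DKO is set against Mertk-KO with 95% intervals, and those of Gfpt2, Ppl and Tnfaip2 leave out 0.

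The difference between LXR-DKO and Mertk-KO was tested, since the levels of those 5 libraries did not choose the genes. Its errors come from the spread within all 4 groups, the WT and depleted libraries included. Choosing genes by depleted against WT can favour a small spread in those libraries. Where the spread is shared between groups, it can favour a small spread in LXR-DKO and Mertk-KO as well. The SE and intervals may therefore be too narrow, and the test is not fully independent of the choice. None of the 9 genes passed the threshold in limma, nor with voom weights or with only the 2 groups fitted, where 2.46% of all genes tested passed in limma (341 genes, and 20 with only the 2 groups fitted). Of the 9 genes 3 were at an unadjusted p below 0.05 in limma, as were 20.9% of all genes tested. Ppl was higher in LXR-DKO by 0.56 on the log2 scale (SE 0.20, 95% interval 0.11 to 1.00, limma adjusted p = 0.149). Gfpt2 had a difference of -0.44 (SE 0.18, interval -0.84 to -0.04, limma adjusted p = 0.198). For Tnfaip2 it was -0.26 (SE 0.12, limma adjusted p = 0.236), and in TPM only -0.01. In each of the 3 all libraries of 1 group lay above all of the other, as they did for 5 of the 9 genes in all and for 31.5% of all genes tested.

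Intervals of the other 6 genes held 0. The difference was 0.15 for Fmo2 (interval -0.18 to 0.49, limma adjusted p = 0.609) and 0.17 for Klhdc8a (interval -0.10 to 0.45, limma adjusted p = 0.471). For Prnd it was -0.34 (interval -0.89 to 0.22) and for Chp2 0.31 (interval -0.31 to 0.92). Pla2g2d, with the fewest reads, had the widest interval, -1.45 to 0.55, so that a level 2-fold lower in LXR-DKO lay within it. Ier3 differed by -0.20 (limma adjusted p = 0.476), and the 2 Mertk-KO libraries decided this value: it was 0.06 without Mertk-KO 1 and -0.46 without Mertk-KO 2. Each of those leaves 1 Mertk-KO library, whose spread is then assumed to be that of the other groups, and they are given as values with no test. The median difference of the 9 genes was -0.20, against 0.02 for all genes tested.

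The families and pathways of the 9 genes were followed in gene lists, beside lists of glucocorticoid-induced and circadian clock genes. Together these made 11 lists, of which 106 genes were tested. None passed the threshold between depleted and WT hearts in limma or with voom weights, where 0.238% of all genes tested did in limma, so that a count of 0 says little for lists of this size. At an unadjusted p below 0.05 there were 26 (24.5%), against 7.53% of all genes tested. That count pools all 11 lists, the glucocorticoid and clock lists included, so it does not describe the families alone. In the hexosamine pathway around Gfpt2, 6 of 10 genes were higher and 4 lower, with a median log2 difference of 0.05 against 0.00 for all genes tested. Gfpt1, the other form of the enzyme, was at 423 ± 34.3 normalised counts in depleted hearts and 401 ± 3.89 in WT (SD, n = 3). Ogt, which attaches the pathway's sugar to proteins, was at 2350 ± 66.4 against 2095 ± 57.3. The 10 differences of this list lay between -0.23 and 0.19. That of Gfpt2 was 1.02, but Gfpt2 was chosen by this comparison and the list genes were not, so nothing is read from the contrast.

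Of the flavin-containing monooxygenases 2 of 6 listed were high enough to test. Fmo5 was at 333 ± 22.8 normalised counts after depletion and 274 ± 32.0 in WT, and Fmo1, which neighbours Fmo2 in the genome, at 713 ± 60.1 against 692 ± 16.3 (SD, n = 3). Plakins and desmosome genes around Ppl split into 5 higher and 4 lower of 9 tested (median 0.01). The desmosomal cadherin Dsc2 was at 801 ± 29.3 against 964 ± 127. Of the 14 other immediate early genes tested beside Ier3, 5 were higher and 9 lower (median -0.27), and Fos was at 45.3 ± 27.9 after depletion against 249 ± 221 in WT. Fos ranged from 46.1 to 484 between WT libraries and from 26.9 to 77.4 between depleted ones, so its groups overlapped.

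Among relatives of the lower genes, secreted phospholipases and their receptor were 1 higher and 3 lower of 4 tested, with a median of -0.18. Pla2g5, whose gene lies 17198 bases from Pla2g2d, was at 359 ± 63.7 normalised counts in depleted hearts and 495 ± 38.3 in WT (SD, n = 3), a log2 difference of -0.47 (SE 0.14). Calcineurin B homologs and sodium-proton exchangers around Chp2 were 5 higher and 2 lower of 7, and Chp1, the widely expressed relative of Chp2, was at 1058 ± 58.8 against 1247 ± 36.4. Prnp, which encodes the prion protein and lies next to Prnd, was on the other side of WT from Prnd, at 2032 ± 186 against 1668 ± 81.2. The 7 other kelch genes tested had a median difference of 0.01, and the 21 TNF and NF-kB target genes one of 0.02, with 11 higher and 10 lower. Nfkbia, an NF-kB target and inhibitor, was at 501 ± 125 against 322 ± 41.3 while Tnfaip2 was lower.

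A pair of broader lists had medians further from 0. Glucocorticoid-induced genes were 12 higher and 3 lower of 15 tested, with a median log2 difference of 0.31, and Tsc22d3 was at 1266 ± 284 normalised counts against 756 ± 98.1 (SD, n = 3). Set against WT, 10 of the 15 were also higher in Mertk-KO (median 0.14) and 11 in LXR-DKO (median 0.20). By library the list's median was 0.20 to 0.47 above the WT mean after depletion. It was 0.08 to 0.43 in Mertk-KO and 0.03 to 0.32 in LXR-DKO, so these groups overlapped. The list's summed counts were 10001 to 15720 after depletion and 13766 to 16601 in WT. Circadian clock genes were 12 higher and 4 lower of 16, with a median of 0.53. Nr1d2, a repressor of the clock, was at 2764 ± 91.5 in depleted hearts and 1914 ± 289 in WT, and Arntl, an activator of it, at 18.2 ± 11.3 against 114 ± 74.2. The labels do not give the time of day at which hearts were taken. The median of the clock list was 0.52 to 0.60 above the WT mean in the depleted libraries and -0.35 to 0.18 in WT. It thus differed in the same comparison that chose the 9 genes. In Mertk-KO it was -0.92 to 0.07 and in LXR-DKO -0.41 to -0.07. The part of the clock list in the differences of the 9 genes was not tested.

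In Mertk-KO against WT 11 of the 106 list genes were called (10.4%), near the 9.27% of all genes tested, and 9 were called with voom weights. They included Ogt, at 1401 ± 151 normalised counts (SD, n = 2), Dsc2 at 514 ± 8.47 and Macf1 at 3016 ± 24.2, which fell, and Prnp at 2765 ± 298 and Pla2g12a at 630 ± 8.35, which rose. Atf3 rose as well, to 255 ± 58.5 from 46.7 ± 29.4 (SD, n = 3 in WT). In LXR-DKO against WT none of the 106 was called by limma or voom, with 16 at an unadjusted p below 0.05 (15.1%, against 11.5% of all genes tested), where 0.418% of all genes were called. Between LXR-DKO and Mertk-KO 9 of the 106 were called by limma (8.49%, against 2.46% of all genes tested) and 6 with voom weights, and among the 9 Dsc2 and Ogt were higher in LXR-DKO while Atf3 and Prnp were lower.

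Markers of the cell types that could give these transcripts were read beside the 9 genes. The 9 resident macrophage markers summed to 1739 to 1911 normalised counts in WT and 252 to 1219 in depleted libraries, and all 8 tested were lower. Timd4 and Cd163 fell by the limma test, Cd163 to 23.5 from 223 normalised counts. Vsig4 was at 0 in the 3 depleted libraries, which allows up to 3 reads, and was above 0 in each WT library. The 10 general macrophage markers summed to 3396 to 4093 in WT and 1219 to 2583 after depletion. All 10 were lower and 8 were at an unadjusted p below 0.05, although none passed limma's threshold and 1 passed with voom weights (Csf1r), and Lyz2 and Csf1r remained at means of 885 and 307. Macrophage markers thus moved with the 5 lower genes, and their part in those differences was not tested.

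The depleted libraries differed among themselves in how far these markers were lower. The median of the resident macrophage list lay -0.62 from the WT mean on the log2 scale in Macrophage-depleted 1, -0.87 in Macrophage-depleted 2 and -3.33 in Macrophage-depleted 3. Over the same 3 libraries Klhdc8a was at 169, 179 and 168 and Tnfaip2 at 396, 510 and 413, so neither followed that order. Prnd at 45.0, 69.3 and 36.0 did not follow it either. Chp2 was at 8.45, 9.19 and 6.48, on 6, 13 and 9 estimated reads. Pla2g2d was at 7.04, 3.48 and 1.60, on 5, 4.92 and 2.23 estimated reads. For Chp2 and Pla2g2d these are too few reads to read an order from. In Mertk-KO the general macrophage markers summed to 4472 to 6616, above WT. The resident markers summed to 1728 to 1798 there, against 1739 to 1911 in WT. In LXR-DKO the resident markers summed to 1205.5 to 1505.3, below WT. Mean normalised counts in LXR-DKO were above WT for Klhdc8a, Chp2 and Tnfaip2 and below WT for Prnd and Pla2g2d. Of these, Chp2, Tnfaip2 and Pla2g2d overlapped WT, with log2 differences of 0.13 (SE 0.25), 0.04 (SE 0.10) and -0.07 (SE 0.41). In TPM the LXR-DKO mean of Tnfaip2 was below WT, at 91.5% of it. Tnfaip2, Pla2g2d and Prnd had their highest normalised counts of the series in Mertk-KO, Pla2g2d and Prnd in Mertk-KO 2 alone. In TPM Tnfaip2 was highest in WT 3, at 27.5, and at 22.5 and 21.2 in Mertk-KO.

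Other cell types moved too. Monocyte and dendritic cell markers summed to 280 to 327 after depletion against 142 to 204 in WT, with Ccr2 at a mean of 145 against 63.5. Mesothelial markers had a median 1.76 to 1.91 above the WT mean in depleted libraries, but WT itself spanned -2.95 to 1.56, with WT 3 apart. Adipocyte markers summed to 20.9 to 34.1 after depletion and 79.7 to 169 in WT. Erythroid markers summed to 3302 to 4863 after depletion and 4994 to 8508 in WT, with all 5 lower and a median log2 difference of -0.66. Neutrophil markers were few, summing to 22.5 to 75.5 against 22.3 to 27.6. Endothelial markers were slightly lower in sum, 9174 to 9863 against 10361 to 11218. All 6 were lower, with a median log2 difference of -0.15, and none passed the threshold in limma. Medians of the fibroblast and ventricular cardiomyocyte lists differed from WT by 0.12 and 0.00. T and NK cell markers were too low to test. Atrial markers varied between libraries of 1 group, from 3433 to 25595 in WT. The part of these cell types in the 9 genes' values was not tested.

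**Figure D3:**
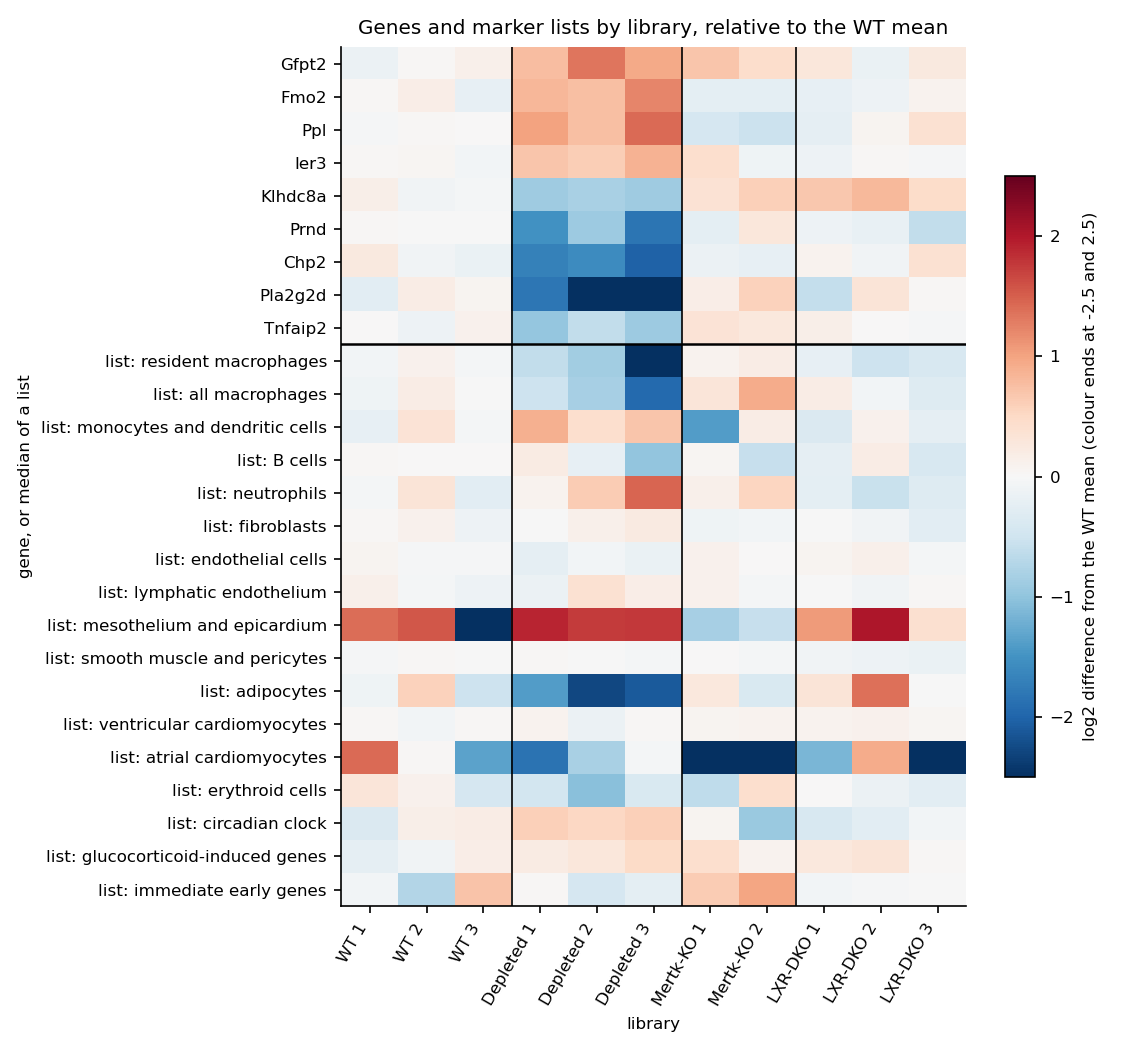
Log2 difference from the WT mean, by colour, for the 9 genes (upper block) and for the median of each marker or gene list (lower block) in 11 libraries, with red above and blue below WT and colours ending at -2.5 and 2.5. Both macrophage lists and the adipocyte list are blue and the circadian clock list is red in the 3 depleted libraries, in the columns where the 9 genes stand apart.

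The 9 genes lie on 8 chromosomes, and the genes around them were examined for differences of their own. Within 1 Mb of each there were 12 to 64 tested genes, 247 in all. None passed the threshold between depleted and WT hearts in limma, 24 were at an unadjusted p below 0.05 (9.72%, against 7.53% of all genes tested), and 1 passed with voom weights (Siglec1). The 2 genes nearest to each in the tested set had log2 differences between -0.48 and 0.45. Mapk9, 8138 bases beyond Gfpt2, was at 726 ± 37.2 normalised counts against 713 ± 11.6 in WT, and Flot1, 307 bases beyond Ier3, at 1855 ± 165 against 1791 ± 122 (SD, n = 3). Ubn1 ends 2 bases from the end of Ppl and was at 623 ± 46.4 against 531 ± 20.1. No label says whether counting used strand, so reads at that border cannot be assigned with certainty.

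Prnd starts 864096 bases from the start of Siglec1, the gene that carries the toxin receptor in CD169-DTR mice, on the same chromosome. Whether the difference of Prnd goes with the depletion or with the allele and the DNA around it cannot be told apart here.

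**Figure D4:**
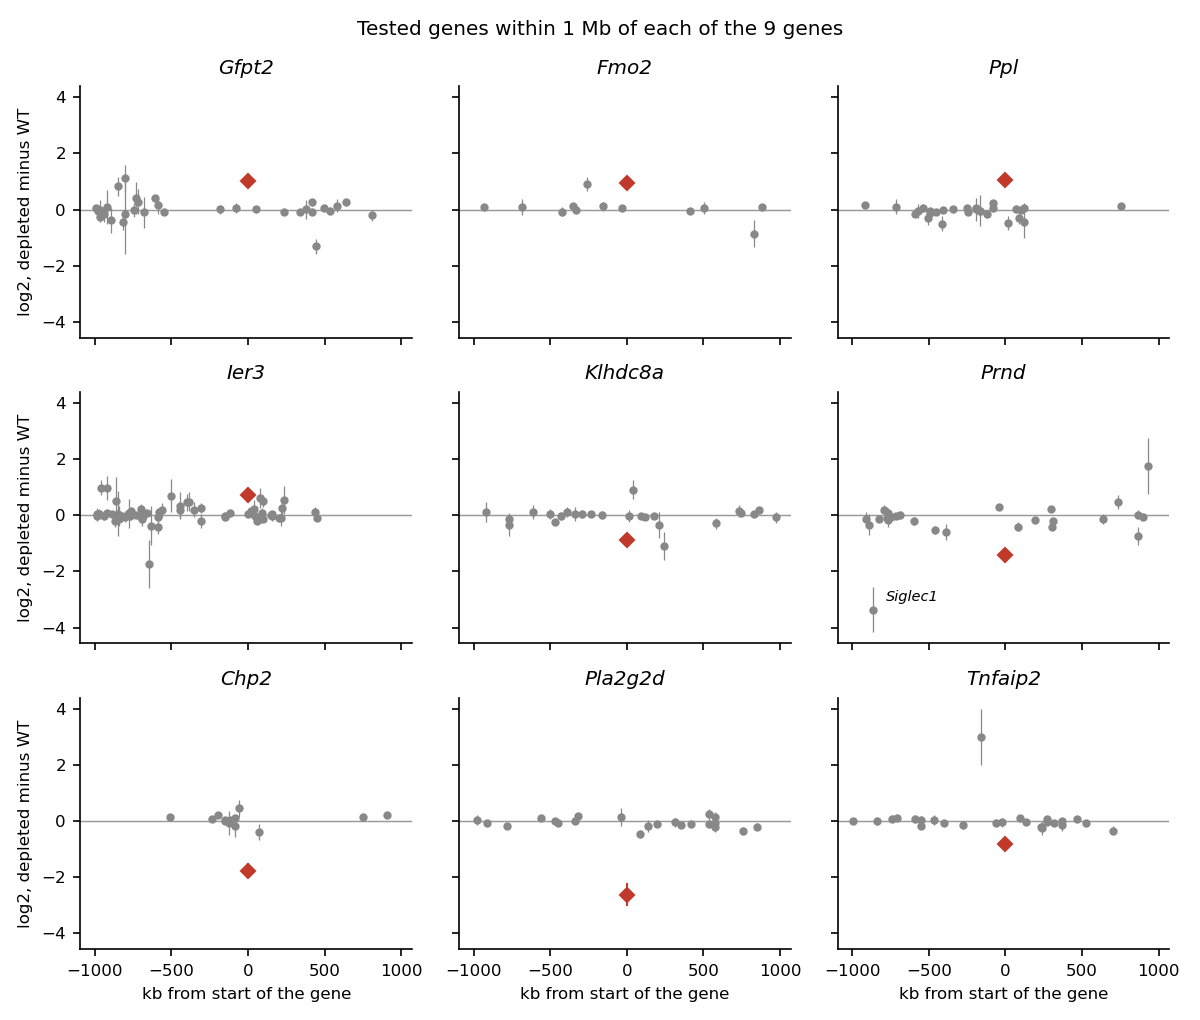
Log2 difference between depleted and WT hearts for tested genes within 1 Mb of each of the 9 genes, by distance in kb from the start of the gene; bars are SE, the red diamond is the named gene and grey points are its neighbours. None of the grey points passed the threshold in limma, and Siglec1 is marked in the panel of Prnd.

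RefSeq promoter windows of 250 bases before to 50 after the start were found for 8 of the 9 genes, Fmo2 and Prnd with 2 starts each, 10 windows in all. Ppl had no entry. Beside CACGTG in 1 window and TGANTCA in 1, the windows were searched on both strands for TTATGNAA, the D-box of clock output genes, and for 1 narrow form each of the NF-kB and glucocorticoid receptor motifs. The D-box and those 2 forms were in none of the 10. A wider form of the NF-kB motif, searched after the data were seen, was in 4 of the 10 windows, those of Gfpt2, Ier3 and Tnfaip2 and the second of Prnd, and in 8.46% of all windows. Of 32851 promoter windows in the whole table, 7.15% held the E-box, 7.81% the AP-1 site, 3.39% the D-box, 0.411% the narrow NF-kB form and 0.00913% the glucocorticoid form. A match describes the sequence and is not evidence of binding.

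Genes whose levels followed each of the 9 most closely were found by Pearson's r over the 11 libraries among 12586 genes. These r describe libraries that share 4 groups, and the group differences carry much of them. Chp2 was followed by the macrophage receptor Cd163 (r = 0.935), which was at 23.5 ± 14.5 normalised counts after depletion and 223 ± 16.7 in WT (SD, n = 3), and then by Naa40 and Hcn2. After group means were taken out, r with Cd163 was 0.581. Prnd was followed by Ctnnbip1 (r = 0.970), by the fractalkine receptor Cx3cr1 of macrophages (r = 0.949; 0.783 after group means) and by Ralgds. Pla2g2d was followed by Apln, a peptide hormone of endothelium, (r = 0.974), by Trf and by the myeloid receptor Lilra5 (r = 0.956). Apln was at 117 ± 25.9 in depleted hearts and 274 ± 16.9 in WT.

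Tnfaip2 was nearest to Tspan15 (r = 0.971), Wfdc17 and Rassf3, and Klhdc8a to Ogfod2 (r = 0.982), Erp29 and Adora2a. Of the genes that were higher after depletion, Gfpt2 was followed by the acute-phase gene Serpina3n (r = 0.894), at 203 ± 52.5 normalised counts against 85.5 ± 10.4 (SD, n = 3), then Zfp846 and Smad2. Fmo2 was followed by Epc1 (r = 0.935), by the matrix protein gene Thbs2, at 623 ± 112 against 378 ± 22.8, and by Txndc16. Ppl was nearest to Usp54 (r = 0.952; 0.938 after group means), Art5 and Rasgrf2, and Ier3 to Ephx1 (r = 0.937), Hdac4 and Fam117b. Among the 9 genes themselves Fmo2 and Ppl varied together across libraries (r = 0.956; 0.807 after group means), and Ppl and Prnd went opposite ways (r = -0.949; -0.881 after group means). They are the pairs that kept the largest r after group means, and the raw r holds the difference that chose the genes. The strongest raw r was that of Fmo2 and Tnfaip2 (-0.969; -0.675 after group means). Other pairs lost theirs, such as Klhdc8a and Chp2 (0.880; -0.094), or changed sign, such as Gfpt2 and Tnfaip2 (-0.602; 0.699).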

How the data were processed

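The authors deposited 2 tables of all 11 libraries, and both hold a signal per gene. Per the submitters' processing notes CASAVA 1.8.2, cutadapt, RSEM 1.2.20, kallisto 0.43.1 and GRCm38 were used, with no role stated for any of them. Per the labels' protocols, RNA was amplified with a single-cell kit before library preparation. The first signal, deposited as normalised counts, is scaled to library size with 0.5 read added, as its values show; that read was removed and values were scaled to the mean effective library size of 15388737. The second is TPM rescaled between libraries.

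Only 59.1% to 62.8% of low values were whole within 0.01 read, so no count model was used. Genes with a mean of at least 10 were tested, 13884 in all, with limma 3.58.1 (R 4.3.3, trend) on log2(normalised count + 1), 1 model for 4 groups, 7 residual degrees of freedom, two-sided, Benjamini-Hochberg threshold 0.05. Folds on this scale understate changes of low genes. A count of 0 allows up to 3 reads, or 2.12 to 4.22 normalised counts, for counting error only, since amplified reads are not independent molecules. Symbols and positions came from GENCODE M21 (GRCm38), which matched 35469 of 35584 identifiers.

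The 9 genes, the lists and the rules for named genes were chosen with earlier results of these data known. Named were the 9 genes, targeted genes, list genes with the smallest p, the 3 genes most like each, and nearest neighbours. The fit was tested on simulated data. Alternatives covered pseudocount, filter, scaling, table, weights, groups fitted, replicate block, transcript length and each library left out.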

Additional observations from a re-analysis of the deposited data

How the results depend on the processing

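All 9 genes kept their direction between depleted and WT hearts under each of the 23 alternatives in which they could be tested; Pla2g2d was too low for the TPM table, and Pla2g2d and Chp2 for a minimum mean of 50. The number of the 9 passing there is given above for libraries left out; Ier3 did not pass with total-read scaling, a minimum mean of 50 or the length trend removed, and Ppl did not with voom weights. Between LXR-DKO and Mertk-KO 0 to 1 of the 9 passed with a library left out, and Ier3 turned from -0.20 to 0.064 without Mertk-KO 1 and to -0.456 without Mertk-KO 2. The call of Klhdc8a in Mertk-KO against WT was also lost with no filter, total-read scaling, TPM values, library weights, the 2 groups fitted alone or the replicate block, and in LXR-DKO with TPM values. Depth limits Pla2g2d and Chp2 most.

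Over all genes the number passing moved far. Depleted against WT it was 33, and 6 in the TPM table, 219 with library weights, 66 with only the 2 groups fitted and 3 to 84 with a library left out. For Mertk-KO against WT it was 1287, and 389, 12, 1 and 70 to 2399 in that order, 2399 being without Mertk-KO 2. In LXR-DKO against WT it was 58, with 593 under library weights, 124 with the 2 groups fitted and 31 to 118 with a library left out. Between LXR-DKO and Mertk-KO it was 341 (246 higher, 95 lower), and 616 (525 higher, 91 lower) with total-read scaling, 82 in the TPM table, 162 with voom weights, 19 with library weights, 20 with the 2 groups fitted and 72 to 2168 with a library left out, 2168 again without Mertk-KO 2. With 1 Mertk-KO library left out that group has 1 sample, which is assumed to vary like the other groups. Total-read scaling also moved the split of Mertk-KO against WT from 469 higher and 818 lower to 188 and 1313. The cause was not tested.

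Same-numbered libraries are not tied by the labels, and their deviations from group means correlated at only -0.0937 to 0.107, so numbers were not treated as pairs. With the replicate number as a block the counts were 22, 391, 53 and 119 in the order above, and 6 of the 9 genes passed between depleted and WT hearts, without Gfpt2, Ier3 and Pla2g2d.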
